A study of Mus musculus with 4 samples.

Results

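Open chromatin was described in 2 chromosome stretches of mouse embryonic stem cells: the distal end of chromosome 6, from 120 to 150 Mb, and a stretch of chromosome 15, from 15 to 35 Mb (build mm10, positions counted from 1). The members were all peaks of the 4 deposited peak lists in these stretches, merged where they overlapped by at least 1 bp. This gave 3671 regions out of 170898 in all, 3017 of them on chromosome 6 and 654 on chromosome 15. The rest of chromosome 6 held 6822 regions, the rest of chromosome 15 held 6037 and the 17 other autosomes 150353. The stretches had been picked because the values of these same libraries differed there, so the differences between groups are given as a description and without a test.

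The assay was ATAC-seq, in which a transposase cuts accessible DNA and inserts sequencing adapters. Per the labels, all cells were of the mouse embryonic stem cell line 2TS22C, carried a silenced endogenous SOX2 gene and had been treated with DOX. The 2 SOX17FNV libraries came from cells transduced with a lentivirus for SOX17FNV, an engineered form of the endoderm factor SOX17, and the 2 SOX2 libraries from cells transduced with a lentivirus for SOX2, a pluripotency factor. Cells of either group grew in 2i serum/LIF medium, and each library started from 900000 cells. The titles call the libraries of a group biological replicates. The labels do not say whether these are separate lines or cultures of 1 line, so the spread between them may be technical. The lists held 120341 and 92851 peaks in the SOX17FNV libraries, against 123214 and 96500 peaks in the SOX2 libraries. Promoter windows were called for 5 or 6 of the 6 embryonic stem cell marker genes that have such a window, in every library. The same held for 3 of 6 fibroblast marker genes and for 3 of 3 endoderm marker genes.

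A peak caller counts the fragments stacked over a position, the pileup, and compares it with a local background computed from the reads around it. The fold enrichment it reports is the ratio of the pileup to that background. In each list the background has a lowest value, at which many peaks stand. Above that value, pileup and background both grow with the amount of DNA that is sequenced from a place. Fold enrichment then grows only where a peak stands out more sharply from its surroundings. At the lowest background, fold enrichment follows the pileup alone. In pooled cells, more copies of a chromosome segment per cell, a larger share of cells that carry such copies, and more open chromatin per copy cannot be told apart from peak lists. The distal end of mouse chromosome 6 holds Nanog, Dppa3 and Gdf3, a cluster of genes active in pluripotent cells, and the C-type lectin genes of natural killer cells. The stretch of chromosome 15 holds genes of neurite growth and several cadherins in a gene-poor surrounding.

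The promoter windows of 4 genes are printed here because they show the range of patterns in these stretches, from a promoter with fewer fragments in the SOX17FNV libraries to one with more. They were chosen after their values were seen. The sequences are RefSeq windows of 300 bases (build GRCm38.p6), which run from 250 bases before to 50 bases after a gene start, 5′ to 3′ along the gene. Capitals mark CG dinucleotides, which are frequent in promoters that are open in many tissues. Emp1, an epithelial membrane protein gene (chr6:135362681-135362980, plus strand), had the lowest ratio among promoter windows in the chromosome 6 stretch. Kcnj8, a potassium channel gene (chr6:142571565-142571864, minus strand), had the next lowest. Ptpn6, which encodes the phosphatase SHP-1 (chr6:124738660-124738959, minus strand), had higher values in the SOX17FNV libraries. Myo10, a myosin gene of filopodia, has a main window (chr15:25622300-25622599, plus strand) under a region called in all 4 libraries and a second window (chr15:25752956-25753255, plus strand) under a region called in the SOX2 libraries alone.
Emp1: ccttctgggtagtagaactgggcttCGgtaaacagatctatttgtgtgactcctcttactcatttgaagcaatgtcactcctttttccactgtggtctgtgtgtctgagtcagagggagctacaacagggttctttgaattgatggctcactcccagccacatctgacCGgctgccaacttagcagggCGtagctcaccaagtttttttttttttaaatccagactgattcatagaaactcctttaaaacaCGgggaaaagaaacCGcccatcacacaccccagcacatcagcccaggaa
Kcnj8: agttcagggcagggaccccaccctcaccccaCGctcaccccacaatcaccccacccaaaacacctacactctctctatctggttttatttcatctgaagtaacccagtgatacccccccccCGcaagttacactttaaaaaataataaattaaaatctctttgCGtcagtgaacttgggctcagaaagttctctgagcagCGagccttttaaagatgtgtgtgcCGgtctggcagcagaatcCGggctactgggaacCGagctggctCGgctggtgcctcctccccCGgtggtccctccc
Ptpn6: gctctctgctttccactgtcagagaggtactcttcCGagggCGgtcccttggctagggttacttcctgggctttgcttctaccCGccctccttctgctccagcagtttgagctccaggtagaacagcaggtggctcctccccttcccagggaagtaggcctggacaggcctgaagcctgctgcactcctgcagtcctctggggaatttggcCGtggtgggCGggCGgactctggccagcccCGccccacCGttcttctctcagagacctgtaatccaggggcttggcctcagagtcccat
Myo10 main window: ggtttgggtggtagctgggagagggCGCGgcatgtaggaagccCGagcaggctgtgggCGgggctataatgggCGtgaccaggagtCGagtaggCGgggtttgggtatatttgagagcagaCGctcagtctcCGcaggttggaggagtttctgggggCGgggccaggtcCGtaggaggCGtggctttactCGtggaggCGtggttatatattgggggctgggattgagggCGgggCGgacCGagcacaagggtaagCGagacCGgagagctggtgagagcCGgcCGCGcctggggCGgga
Myo10 second window: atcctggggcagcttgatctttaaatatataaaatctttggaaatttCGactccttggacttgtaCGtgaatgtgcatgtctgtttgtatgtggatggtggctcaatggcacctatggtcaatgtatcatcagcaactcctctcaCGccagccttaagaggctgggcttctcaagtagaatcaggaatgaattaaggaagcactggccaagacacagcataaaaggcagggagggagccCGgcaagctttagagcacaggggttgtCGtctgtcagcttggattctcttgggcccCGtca
These windows held 5 CG dinucleotides at Emp1, 9 at Kcnj8, 8 at Ptpn6, 23 in the main Myo10 window and 6 in the second one. The core SOX motif (ACAATG, or CATTGT on the other strand) and the octamer motif bound by POU factors (ATGCAAAT, or ATTTGCAT on the other strand) had 0 matches in each of these windows. Over all 32817 RefSeq windows, 12.6% held the SOX core and 1.74% the octamer. The shares were 14.1% and 2.73% among the 512 windows of the chromosome 6 stretch, and 22.9% and 1.43% among the 70 windows of the chromosome 15 stretch. On chromosome 15 these were 16 windows and 1 window, and the 70 windows belong to 59 genes. Whether these shares differ from those of all windows was not tested.

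Fewer fragments were stacked on the distal chromosome 6 regions in the SOX17FNV libraries than in the SOX2 libraries, at promoters, inside genes and between genes alike. For each library, the pileup of the highest summit in a region was divided by that library's median over the regions of the 17 other autosomes. Only regions called in all 4 libraries, here named shared regions, were used, and 957 of the 3017 regions of the chromosome 6 stretch were shared. Their median relative pileup was 0.970 and 0.920 in the SOX17FNV libraries, against 1.14 and 1.14 in the SOX2 libraries. The group means were 0.945 ± 0.0351 in SOX17FNV and 1.14 ± 0 in SOX2 libraries (SD, n = 2 each), where the SD of 0 reflects medians of whole numbers that came out at the same ratio. Both SOX17FNV libraries thus lay below both SOX2 libraries, by more than the spread within either group. In the rest of chromosome 6 the 2209 shared regions had medians of 0.970 and 0.920 in the SOX17FNV libraries, against 0.971 and 1.0 in the SOX2 libraries. The SOX17FNV medians came out equal inside and outside the stretch, at whole-number pileups of 32 and 23. The SOX2 medians were higher inside it. In the local background, given below, the libraries of both groups were higher inside.

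Region by region, the median log2 ratio of SOX17FNV to SOX2 was -0.25 in the chromosome 6 stretch, a ratio of 0.841. It was -0.03 in the rest of the chromosome, 0.02 on the other autosomes and -0.13 on chromosomes X and Y. Of the 957 shared regions, 783 (81.8%) had a ratio below 1. This share was 53.8% in the rest of the chromosome, 47.6% on the other autosomes and 65.0% on X and Y. In 484 of the 957 (50.6%) both SOX17FNV libraries were lower than both SOX2 libraries, against a background of 20.8% over all 57783 shared regions of the genome. In 53 (5.54%) both were higher, against a background of 21.6%. On X and Y the shares were 36.9% lower and 12.2% higher. The stretch was chosen on this contrast, so nothing is read from these counts beyond their size. By replicate number the log2 ratio was -0.20 for libraries 1 and -0.30 for libraries 2.

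**Figure D1:**
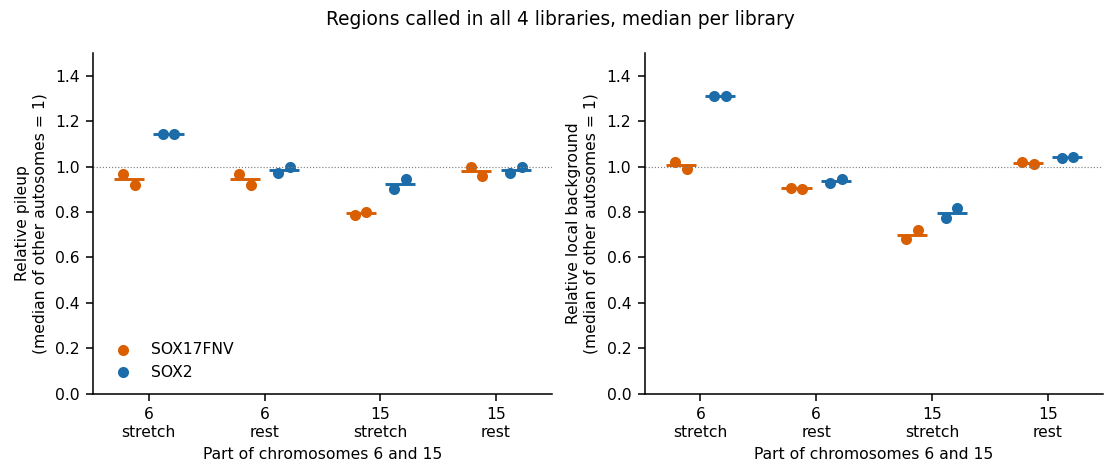
Median relative pileup (left) and median relative local background (right) of regions called in all 4 libraries, per library, with 1 as the median of the 17 other autosomes. Points are libraries, bars are group means, and SOX17FNV stands left of SOX2. In the chromosome 6 stretch the SOX17FNV libraries lie at 0.970 and 0.920 and the SOX2 libraries at 1.14 for pileup.

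The local background differed more than the pileup. Relative to the other autosomes, its median over the 957 regions was 1.02 and 0.991 in the SOX17FNV libraries, against 1.31 and 1.31 in the SOX2 libraries. The groups did not overlap, and the median ratio was 0.794. In 687 regions (71.8%) the background was lower in both SOX17FNV libraries than in both SOX2 libraries, against 18.6% of shared regions genome-wide. In 11 (1.15%) it was higher, against 16.0%. On X and Y the shares were 34.7% lower and 3.39% higher. The rest of chromosome 6 had relative backgrounds of 0.905 and 0.903 in the SOX17FNV libraries, against 0.930 and 0.944 in the SOX2 libraries. Fold enrichment had a median log2 ratio of 0.03 in the stretch. Relative to the other autosomes its medians came to 0.916 and 0.929 in the SOX17FNV libraries, against 0.928 and 0.919 in the SOX2 libraries, which overlap. The chromosome 6 difference in pileup thus did not appear in fold enrichment.

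The difference was present at all strengths of region. With shared regions split into 4 classes of strength, of equal size on the other autosomes, the median log2 ratio in the chromosome 6 stretch was -0.31 in the weakest class (208 regions), -0.26 in the next (237), -0.30 in the next (261) and -0.15 in the strongest (251). On the other autosomes the same classes had -0.05, -0.00, 0.03 and 0.06. Promoter windows of the chromosome 6 stretch had a median log2 ratio of -0.22 over 145 shared regions, regions inside genes -0.26 over 437, regions outside but within 50 kb of a gene -0.24 over 311, and regions farther away -0.39 over 64. The same 4 classes in the rest of chromosome 6 had -0.02, -0.04, -0.01 and -0.05.

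The chromosome 6 border was located from the local background. A search for the interval that best splits the shared regions of the chromosome placed the start of the lower background between 120464185 and 120481497, a gap of 17311 bp. This gap lies within Il17ra, the gene of an interleukin 17 receptor chain (120463181 to 120483731). Left of it lies Kdm5a, a histone H3 lysine 4 demethylase gene, 19611 bp away, and right of it Tmem121b, 7442 bp away. The 30 shared regions left of the border, which span 0.300 Mb, had relative backgrounds of 1.28 and 1.21 in the SOX17FNV libraries, against 1.25 and 1.18 in the SOX2 libraries, a median ratio of 1.03. The 30 shared regions right of it, which span 0.420 Mb, had 1.16 and 1.14 in the SOX17FNV libraries, against 1.38 and 1.46 in the SOX2 libraries, a median ratio of 0.7998. Left of the border the background was lower in both SOX17FNV libraries in 4 regions and higher in 6, and right of it lower in 25 and higher in 0. The search placed the border where these values differ most, so the contrast between the flanks is part of that choice. The interval ended at 149409734, inside Bicd1, an adaptor gene of the dynein motor, and 149586315 was the last base of any member.

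The same search on the pileup ratio set the start between 120659271 and 120665136, before Cecr2, a bromodomain gene of chromatin remodelling whose span starts 1178 bp further on. Its end was at 149365654, in the gap between Resf1 and Bicd1. The background interval accounted for 36.6% of the squared deviations of its ratio on chromosome 6 and the pileup interval for 11.5%, rank 1 among the 19 autosomes for both. Chromosome 14 was rank 2 for both, at 16.5% and 8.06%, with values higher in SOX17FNV libraries on either side of its limits. When each library was set against the mean of the other libraries, the background search put a limit at 120464185 to 120481497 for SOX17FNV replicates 1 and 2 and SOX2 replicate 2, and at 120.74 Mb for SOX2 replicate 1. In the pileup the limits were 120.44 and 120.65 Mb in the SOX17FNV libraries, against 120.65 and 120.74 Mb in the SOX2 libraries. These searches share libraries and are not independent of each other.

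**Figure D2:**
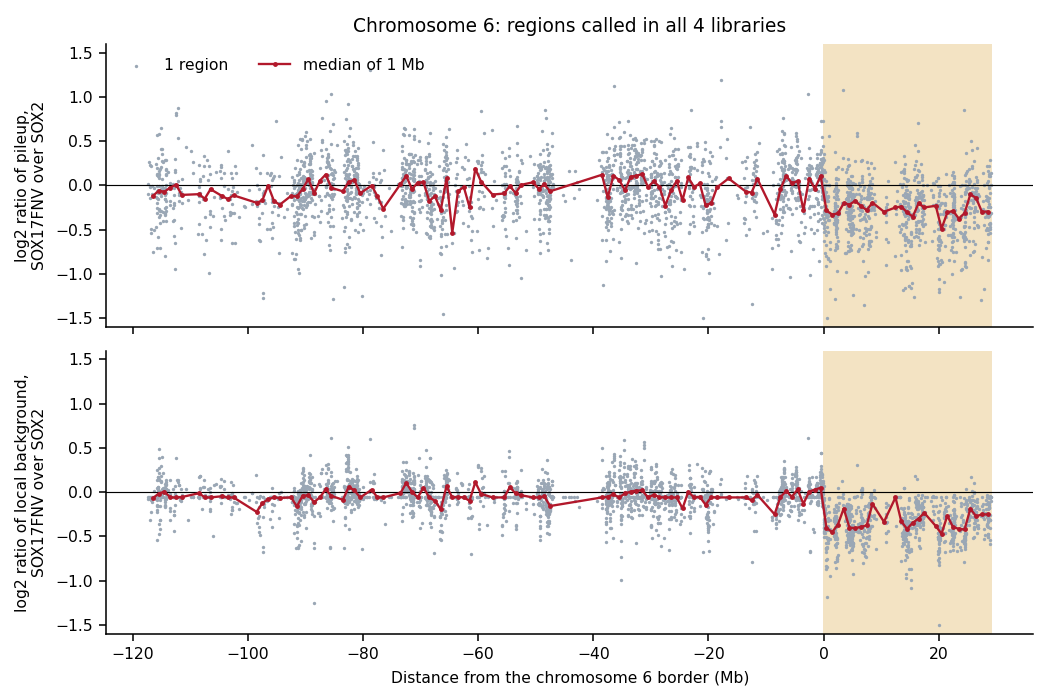
Log2 ratio of SOX17FNV over SOX2 for pileup (top) and local background (bottom) at shared regions of chromosome 6, against the distance from the border found in the local background (Mb). Grey points are regions, values beyond 1.5 are drawn at 1.5, the red line joins medians of 1 Mb with at least 5 regions, and the shaded part lies beyond the border. Left of the border the medians lie mostly close to 0, many of them slightly below 0. Right of it they lie mostly further below 0.

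Members on the left of that border did not share the pattern. The 46 shared regions between 120 Mb and the border had a median ratio of 1.07, with 19 (41.3%) higher and 4 (8.70%) lower in both SOX17FNV libraries, against 21.6% and 20.8% genome-wide. Wnk1, a kinase gene of ion transport that lies across the start of the stretch, had a median log2 ratio of 0.22 over 5 shared regions, and Ninj2, an adhesion protein gene, had 0.11 over 18. The promoter region of Wnk1 (120037909 to 120039940) had pileups of 67 and 57 in the SOX17FNV libraries, against 59 and 51 in the SOX2 libraries. Beyond the border, 911 shared regions had a median pileup ratio of 0.831 and a median background ratio of 0.789, and 683 had a lower and 2 a higher background in both SOX17FNV libraries, against 18.6% and 16.0% genome-wide. In steps of 5 Mb from 120 to 150 Mb the median log2 pileup ratio was -0.19, -0.24, -0.27, -0.25, -0.36 and -0.24. The step before them, from 115 to 120 Mb, had 0.05. Steps outside the stretch ran from -0.20 (100 to 105 Mb, 65 shared regions) to 0.08 (85 to 90 Mb, 192 shared regions). The lowest of them thus lay slightly below the first step inside. At the limit set by the rule itself, the last shared region outside (119948220 to 119949115) had pileups of 12 and 10 in SOX17FNV and 15 and 16 in SOX2 libraries. The first one inside (120025895 to 120026917) had 24 and 16 in SOX17FNV and 26 and 16 in SOX2 libraries.

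Regions called in 1 group alone leaned the same way. In the chromosome 6 stretch, 36 regions (1.19%) were SOX17FNV-only, that is, they had a peak in each SOX17FNV list and none in a SOX2 list, against 3.06% genome-wide. The reverse, SOX2-only, held for 215 regions (7.13%), against 4.09% genome-wide. In the rest of chromosome 6 the counts were 221 (3.24%) SOX17FNV-only and 315 (4.62%) SOX2-only. The lean also occurred on chromosomes X and Y, where 71 of 4015 regions (1.77%) were SOX17FNV-only and 303 (7.55%) SOX2-only. The stretch held 27.4% and 28.7% of the chromosome's peaks in the SOX17FNV libraries, against 32.04% and 33.3% in the SOX2 libraries. Of the SOX17FNV-only regions 19.4% lay within 1 kb of a region called in a SOX2 library, and of the SOX2-only regions 21.9% lay that close to a region called in a SOX17FNV library. SOX2-only regions stood at median percentiles of 33.0 and 34.2 of their own lists, and SOX17FNV-only regions at 33.3 and 31.3 of theirs, so most regions of 1 group were weaker than the median peak. The counts moved with the calls: at a -log10 q of at least 5, 23 SOX17FNV-only and 71 SOX2-only regions were left. When any 1 of the 4 libraries was left out, so that fewer lists had to match, there were 58 to 230 SOX17FNV-only and 270 to 719 SOX2-only regions. Of 189 regions over promoter windows, 0 were SOX17FNV-only and 2 SOX2-only.

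**Figure D3:**
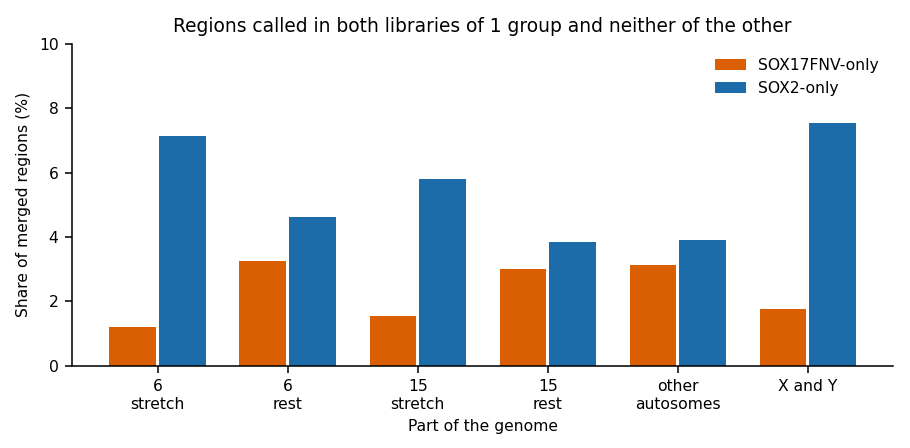
Share of merged regions (%) that were SOX17FNV-only (orange) or SOX2-only (blue) in each part of chromosomes 6 and 15, on the other autosomes and on X and Y. In the chromosome 6 stretch the shares are 1.19% and 7.13%, in the chromosome 15 stretch 1.53% and 5.81%, and on X and Y 1.77% and 7.55%.

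Of 277 protein-coding genes with a member assigned to them on chromosome 6, 229 had a shared region, and 203 of these had a median log2 ratio below 0. Such genes were not counted outside the stretches. SOX2-only regions were assigned to 109 genes and SOX17FNV-only regions to 31. Genome-wide, 4.09% of regions were SOX2-only and 3.06% SOX17FNV-only. The genes named next were picked for having the most regions of 1 group, so their counts are high by choice. Sox5, a SOX factor gene of cartilage and nervous system development, had 0 SOX17FNV-only and 9 SOX2-only regions among 76. These were the most SOX2-only regions of any gene in the stretch, but Sox5 also had the most regions. In regions of either group alone, St8sia1 equalled it with 9. The 15 shared regions of Sox5 had a median log2 ratio of -0.36, and 14 of them were below 0. Grin2b, an NMDA receptor subunit gene, had 0 SOX17FNV-only and 6 SOX2-only regions among 42, with a median of -0.57. St8sia1, a ganglioside sialyltransferase gene, had 3 and 6 among 49, with a median of -0.49. The region at its promoter (142963599 to 142965714) had pileups of 65 and 47 in SOX17FNV and 70 and 70 in SOX2 libraries. Aebp2, a partner of Polycomb repressive complex 2, had 2 SOX17FNV-only and 3 SOX2-only regions among 37. Leaving out SOX17FNV replicate 2 turned this difference round, to 1 region in favour of SOX17FNV. All 10 shared regions of Aebp2 had a log2 ratio below 0. At the Aebp2 promoter (140622182 to 140623590) the pileups were 48 and 32 in SOX17FNV libraries, against 77 and 47 in SOX2 libraries, which overlap before scaling and do not overlap after it.

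Atf7ip, a partner of the histone methyltransferase SETDB1, and Tspan9, a tetraspanin gene, each had 0 SOX17FNV-only and 5 SOX2-only regions, among 29 and 39. Their median log2 ratios were -0.26 and -0.28. Bcat1, which encodes an aminotransferase of branched-chain amino acids, and Ccnd2, which encodes cyclin D2, each had 1 SOX17FNV-only and 3 SOX2-only regions. These were among 45 regions at Bcat1 and 13 at Ccnd2, with medians of -0.46 and -0.31. The genome-wide shares were 3.06% and 4.09%. With only peaks of a -log10 q of at least 10, the difference turned to 1 region in favour of SOX17FNV at Atf7ip, Bcat1 and Aebp2. Another 5 genes, Etnk1, Ptpro, Rerg, Slc15a5 and Tmtc1, tied with Bcat1 and Ccnd2 at 4 regions of 1 group, and the tie was broken by the order of the symbols. Bcat1 has a pair of promoter regions. The one at 145048461 to 145049397 had pileups of 43 and 32 in SOX17FNV libraries, against 64 and 48 in SOX2 libraries, and the one at 145075563 to 145076765 had 79 and 46 in SOX17FNV and 75 and 74 in SOX2 libraries. Relative to the other autosomes, the groups did not overlap at the first and overlapped at the other.

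**Figure D4:**
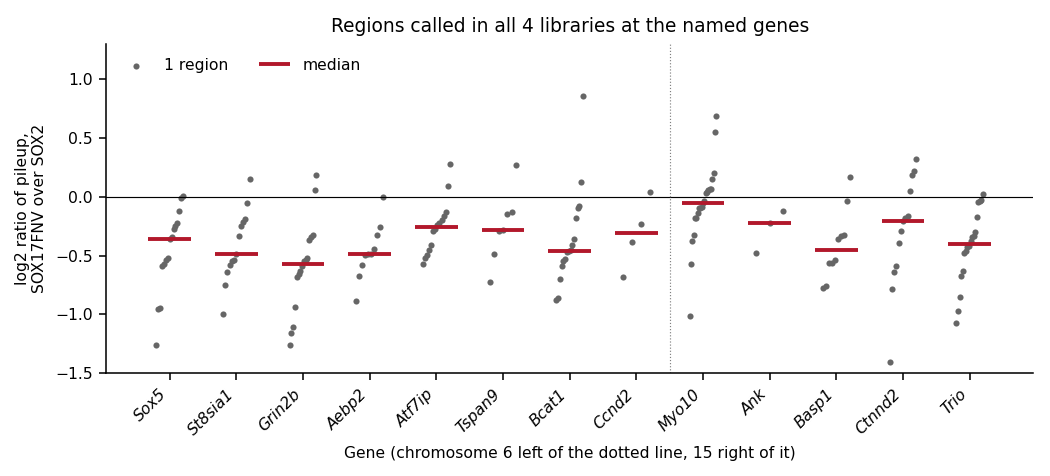
Log2 ratio of pileup, SOX17FNV over SOX2, of each shared region (grey points) assigned to the genes with the most regions of 1 group (ties by symbol), with the median in red. The 8 genes left of the dotted line lie on chromosome 6 and the 5 right of it on chromosome 15. Medians run from -0.57 at Grin2b to -0.06 at Myo10.

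The 7 genes of the pluripotency cluster had 38 shared regions with a median log2 ratio of -0.35, and in 27 of them both SOX17FNV libraries were lower. The cluster had 1 SOX17FNV-only region and 6 SOX2-only ones among 82, against 3.06% and 4.09% of all regions genome-wide. At Nanog itself, the homeobox factor of pluripotency, the promoter region (122706847 to 122707800) had pileups of 85 and 56 in SOX17FNV libraries, against 87 and 68 in SOX2 libraries, a log2 ratio of -0.03 with overlapping groups. The strongest shared region of the stretch (122702016 to 122703229) lies 4260 bp from Nanog, with pileups of 111 and 91 in SOX17FNV and 113 and 94 in SOX2 libraries, or a ratio of 1.06 after scaling. Its local background ratio was 0.898. At Phc1, a Polycomb gene, the promoter region (122339976 to 122341632) had 61 and 52 in SOX17FNV libraries, against 84 and 67 in SOX2 libraries. At Foxj2, a forkhead factor gene (122819585 to 122821017), the pileups were 34 and 24 in SOX17FNV and 54 and 46 in SOX2 libraries. All 10 shared regions of Slc2a3, which encodes the glucose transporter GLUT3, had a ratio below 1, with a median log2 ratio of -0.40. Dppa3, a gene of the early embryo, had -0.38 over 7 and Gdf3, a TGF-beta family ligand gene, -0.43 over 2.

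Cell cycle and signalling genes had 53 shared regions with a median log2 ratio of -0.19, while 1 of the 12 genes of this list, Ret, lies outside the stretch. They had 4 SOX17FNV-only and 9 SOX2-only regions among 176, near the genome-wide shares of 3.06% and 4.09%. Lrp6, a Wnt co-receptor gene, had a median of -0.30 over 11 shared regions. Etv6, an ETS factor gene, had -0.21 over 10 and Tead4, a factor of trophectoderm, -0.13 over 11. At Cdkn1b, which encodes the cyclin-dependent kinase inhibitor p27, the promoter region (134919569 to 134921363) had pileups of 69 and 49 in SOX17FNV libraries, against 76 and 57 in SOX2 libraries, with a log2 ratio of -0.05.

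Metabolism and chromatin genes had 34 shared regions with a median of -0.26. They had 3 regions of each group alone among 90, near the genome-wide shares of 3.06% and 4.09%. The promoters of its glycolytic genes differed among themselves. Gapdh (125164557 to 125165955) had 86 and 61 in SOX17FNV libraries, against 80 and 73 in SOX2 libraries, and Tpi1 (124813609 to 124814654) had 62 and 43 in SOX17FNV libraries, against 62 and 46 in SOX2 libraries. Their log2 ratios were 0.05 and 0.08, while their background log2 ratios were -0.19 and -0.47. Ldhb, a lactate dehydrogenase gene (142506883 to 142508405), had 44 and 37 in SOX17FNV libraries, against 75 and 56 in SOX2 libraries, a log2 ratio of -0.56. At Eno2, which encodes a neuronal enolase (124767764 to 124769944), the pileups were 35 and 25 in SOX17FNV libraries, against 50 and 33 in SOX2 libraries, a log2 ratio of -0.33. After scaling, the groups did not overlap at Ldhb and Eno2 and overlapped at Gapdh and Tpi1.

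The lectin genes of natural killer cells had 18 shared regions with a median of -0.23, and 0 SOX17FNV-only against 2 SOX2-only regions among 50, the last near the genome-wide share of 4.09%. Potassium channel genes had the lowest median of the chromosome 6 lists, -0.50 over 13 shared regions, 12 of them below 0. They had 1 SOX17FNV-only and 3 SOX2-only regions among 47, against 3.06% and 4.09% genome-wide. At the Kcnj8 promoter printed above the pileups were 29 and 22 in SOX17FNV libraries, against 47 and 44 in SOX2 libraries, a log2 ratio of -0.72. At Kcna6, a voltage-gated channel gene (126739378 to 126740925), they were 28 and 18 in SOX17FNV libraries, against 31 and 30 in SOX2 libraries. Over all 57783 shared regions, 20.8% were lower in both SOX17FNV libraries, and over those of the chromosome 6 stretch 50.6%. The members of these lists were lower in 27 of 38, 19 of 53, 18 of 34, 9 of 18 and 9 of 13 shared regions, in the order of the lists above, and in 9 of 15 at Sox5.

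Single regions ranged widely around these medians. The shared region with the lowest ratio on chromosome 6 lay inside Mical3, a gene of an actin-oxidizing enzyme (121002509 to 121004287), with pileups of 23 and 12 in SOX17FNV libraries, against 71 and 47 in SOX2 libraries, a ratio of 0.313. Its local background ratio was 0.439. A region inside Parp11, an ADP-ribosyltransferase gene (127475280 to 127475587), had 15 and 14 in SOX17FNV and 37 and 44 in SOX2 libraries. Another with no gene within 50 kb (147773864 to 147774984) had 11 and 11 in SOX17FNV libraries, against 29 and 30 in SOX2 libraries. At the Emp1 promoter the pileups were 18 and 11 in SOX17FNV libraries, against 38 and 30 in SOX2 libraries, a log2 ratio of -1.14. The first 3 were picked among regions whose groups do not overlap, and the Emp1 promoter for its low ratio.

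A few regions ran the other way. A region inside Vmn2r24, a vomeronasal receptor gene (123784532 to 123785139), had pileups of 47 and 37 in SOX17FNV libraries, against 29 and 16 in SOX2 libraries, a ratio of 2.11. Its local background ratio was 0.983. A region 36450 bp from Bcat1 (144957008 to 144957385) had 22 and 21 in SOX17FNV and 12 and 14 in SOX2 libraries, and one inside Kdm5a left of the border (120439263 to 120439804) had 20 and 18 in SOX17FNV and 12 and 13 in SOX2 libraries. At the Ptpn6 promoter the pileups were 84 and 65 in SOX17FNV libraries, against 73 and 59 in SOX2 libraries, a log2 ratio of 0.30, with a background log2 ratio of -0.17. The first 3 were picked among regions where the SOX17FNV libraries were higher without overlap, and the Ptpn6 promoter after its values were seen.

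The strongest SOX2-only regions of chromosome 6 lay inside Spsb2, a SOCS box gene (124809080 to 124809758), with pileups of 52 and 52 in SOX2 libraries, inside Plekha5 (140521891 to 140523739), with 50 and 51, and 3751 bp from Crebl2 (134826040 to 134826376), with 57 and 42. A region called in a SOX17FNV library lay 92 bp from the Spsb2 region, 1211 bp from the Plekha5 region and 1883 bp from the Crebl2 region. The strongest SOX17FNV-only regions lay 26526 bp from Etnk1, an ethanolamine kinase gene (143139861 to 143140340), with pileups of 44 and 34 in SOX17FNV libraries, inside B4galnt3 (120291713 to 120291910), with 38 and 26, and 7849 bp from Clstn3 (124472633 to 124473123), with 35 and 27. Regions called in a SOX2 library lay 499, 1911 and 1392 bp away. All 6 thus had a region called in the other group within 1911 bp. Gapdh, Cdca3, M6pr and Grcc10 had the strongest shared regions besides the one near Nanog, with ratios of 0.936, 0.987, 0.957 and 0.900.

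On chromosome 15 the difference was smaller and its limits less plain. The 202 shared regions of the 654 members had median relative pileups of 0.788 and 0.80 in the SOX17FNV libraries, against 0.900 and 0.946 in the SOX2 libraries. The group means were 0.794 ± 0.00857 in SOX17FNV and 0.923 ± 0.0328 in SOX2 libraries (SD, n = 2 each), and the groups did not overlap. Both groups lay below the other autosomes, and the SOX17FNV libraries further below. In the rest of chromosome 15 the medians over 2143 shared regions were 1.0 and 0.960 in SOX17FNV libraries, against 0.971 and 1.0 in SOX2 libraries. The median log2 ratio was -0.18 in the stretch, a ratio of 0.884, and 0.02 in the rest of the chromosome. With only peaks of a -log10 q of at least 10 it was -0.088 in the stretch. By replicate number it was -0.13 and -0.23. Both SOX17FNV libraries were lower in 87 regions (43.1%), against 20.8% genome-wide, and higher in 17 (8.42%), against 21.6%. Chromosomes X and Y came near these values, with 36.9% lower, 12.2% higher and a median log2 ratio of -0.13.

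The local background was 0.682 and 0.719 in the SOX17FNV libraries, against 0.773 and 0.817 in the SOX2 libraries, relative to the other autosomes. Region by region the median ratio was 0.960, which equals the ratio of the lowest backgrounds in the lists. On the log2 scale this was -0.06, and it came to -0.028 and -0.10 when SOX17FNV replicate 1 or 2 was left out, and to -0.18 and -0.052 when SOX2 replicate 1 or 2 was. In the SOX17FNV libraries 50.7% and 52.7% of the peaks of the stretch had a background above the lowest of their list, and in the SOX2 libraries 53.2% and 50%. In the chromosome 6 stretch these shares were 74.6% and 75.3% in SOX17FNV and 81.7% and 84.1% in SOX2 libraries. The median fold enrichment ratio was -0.09 on the log2 scale, the same direction as the pileup. Fold enrichment follows the pileup wherever the background is at its lowest, so this direction is not set against that of chromosome 6. In the 4 classes from weak to strong the log2 pileup ratio was -0.23, -0.29, -0.11 and -0.05 over 79, 50, 40 and 33 regions. In steps of 5 Mb from 15 to 35 Mb it was -0.22, -0.34, -0.21 and -0.15, over 17, 11, 90 and 84 regions. Steps outside the stretch reached like values, -0.16 from 60 to 65 Mb and -0.19 from 65 to 70 Mb, over 50 and 43 regions.

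The interval search on the pileup ratio of chromosome 15 did not return this stretch. Its best interval ran from 73512081 to 102932406, from the start of Dennd3 to a gap between Hoxc13 and Hoxc12, with a mean log2 ratio of 0.04 inside and -0.09 outside, and accounted for 4.40% of the squared deviations, rank 3 among the autosomes. A second search left of that interval returned 14697393 to 31442531. The search on the local background returned 25314555 to 31442531 and accounted for 5.07%, rank 6. These last 2 searches share libraries, and the second pileup search was added after seeing the data. Both gave the same right edge, inside Ropn1l, a sperm tail protein gene, and before Marchf6, a ubiquitin ligase gene 6261 bp away. The 30 shared regions left of that edge had relative backgrounds of 0.685 and 0.715 in the SOX17FNV libraries, against 0.767 and 0.884 in the SOX2 libraries. The 30 right of it had 0.699 and 0.760 in SOX17FNV libraries, against 0.741 and 0.749 in SOX2 libraries, which overlap. The left edge in the background lay 48722 bp before Basp1, and the 30 shared regions left of it had a median background ratio of 0.960, again that of the lowest backgrounds. Single libraries, each set against the mean of the others, gave different intervals in the background. These were 96.84 to 97.45 Mb and 25.74 to 28.06 Mb in SOX17FNV libraries, against 31.43 to 102.92 Mb and 27.23 to 34.02 Mb in SOX2 libraries. Only SOX2 replicate 1 thus had a limit near 31.44 Mb.

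From 25314555 to 31442531, the interval of the background ratio, 116 shared regions had median ratios of 0.869 in pileup and 0.902 in background. Of these, 57 had a lower and 1 a higher background in both SOX17FNV libraries, against 18.6% and 16.0% genome-wide. The search had picked this interval for its low background ratio, so the count restates that choice. The 35 shared regions of the stretch to the left had a pileup ratio of 0.843 and the 51 to the right 0.944. At the left limit of the rule, the last shared region outside (14697393 to 14698526) had pileups of 35 and 29 in SOX17FNV and 46 and 38 in SOX2 libraries. The first one inside (15089583 to 15090067) had 11 and 14 in SOX17FNV and 20 and 15 in SOX2 libraries. At the right limit the last one inside (34891348 to 34892244) had 12 and 10 in SOX17FNV and 17 and 18 in SOX2 libraries, and the first one outside (35042586 to 35042936) had 40 and 28 in SOX17FNV and 27 and 27 in SOX2 libraries.

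**Figure D5:**
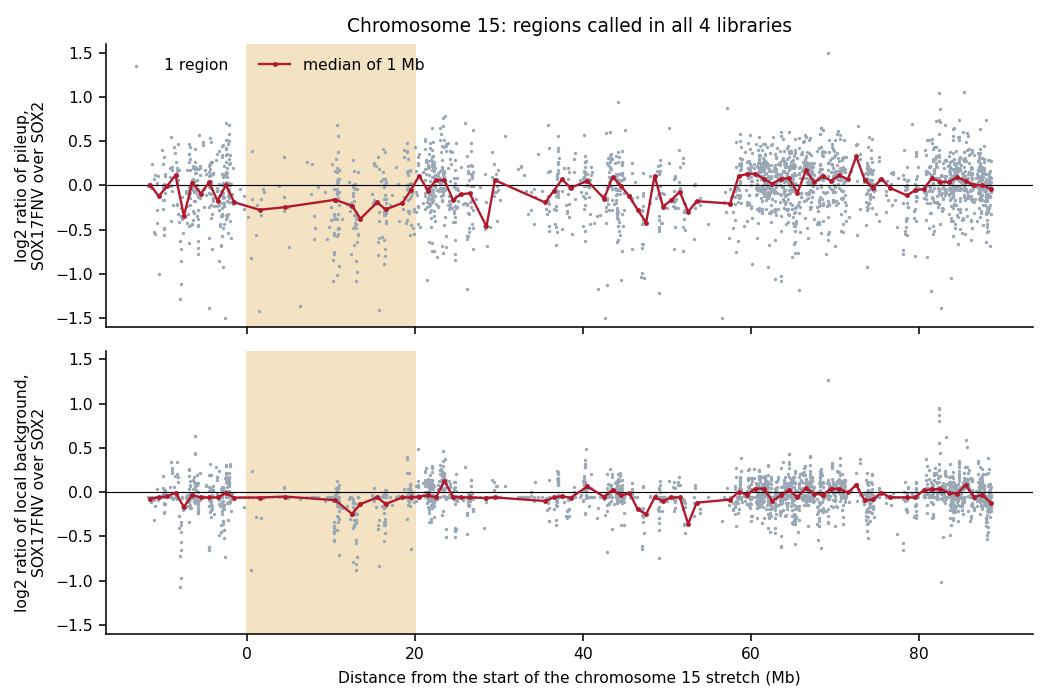
Log2 ratio of SOX17FNV over SOX2 for pileup (top) and local background (bottom) at shared regions of chromosome 15, against the distance from the start of the stretch (Mb), which is shaded. Grey points are regions, values beyond 1.5 are drawn at 1.5, and the red line joins medians of 1 Mb with at least 5 regions. The pileup medians lie below 0 through most of the stretch, and medians as low occur outside it.

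SOX17FNV-only regions numbered 10 (1.53%) and SOX2-only regions 38 (5.81%) in the chromosome 15 stretch, against 181 (2.998%) and 232 (3.84%) in the rest of the chromosome. Leaving out any 1 of the 4 libraries gave 17 to 74 SOX17FNV-only and 43 to 146 SOX2-only regions. The stretch held 8.65% and 7.98% of the chromosome's peaks in SOX17FNV libraries, against 9.69% and 9.92% in SOX2 libraries. Of 38 genes with a member, 36 had a shared region and 27 of these a median log2 ratio below 0, while genes outside the stretches were not counted. The genes of neurite growth had 43 shared regions with a median of -0.35, 27 lower and 1 higher in both SOX17FNV libraries, against 20.8% and 21.6% of shared regions genome-wide. They had 2 SOX17FNV-only and 10 SOX2-only regions among 129, against 3.06% and 4.09% of all regions. Trio, which encodes a guanine nucleotide exchange factor of axon guidance, had a median of -0.40, with 17 of 18 shared regions below 0. The background was lower in both SOX17FNV libraries in 17, against 18.6% genome-wide. Trio lies within the interval that the search picked for its low background ratio, so this count in part restates that choice. The Trio promoter region (28025855 to 28026489) had pileups of 50 and 40 in SOX17FNV libraries, against 71 and 51 in SOX2 libraries. Basp1, a membrane protein gene of growing axons, had 0 SOX17FNV-only and 4 SOX2-only regions among 26. Its promoter region (25412223 to 25413798) had 25 and 27 in SOX17FNV and 45 and 39 in SOX2 libraries. After scaling, the groups did not overlap at either promoter.

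Ctnnd2, a delta-catenin gene of neurons, had 2 regions of each group alone among 41, against 3.06% and 4.09% of all regions genome-wide. Its median was -0.21 over 13 shared regions. Ank, a pyrophosphate transport gene, had 0 SOX17FNV-only and 4 SOX2-only regions among 26. The 12 widely used genes of the list had 34 shared regions with a median of -0.08. Of these, 8 were lower, near the genome-wide share of 20.8%, and 0 higher, against 21.6%. In the whole stretch these shares were 43.1% and 8.42%. At Cct5, a chaperonin subunit gene (31601029 to 31602567), the promoter region had pileups of 45 and 37 in SOX17FNV libraries, against 49 and 38 in SOX2 libraries, which overlap. The cadherin genes had 8 shared regions with a median of -0.22, and Cdh6 lies outside the stretch. With only peaks of a -log10 q of at least 5 their median was 0.07.

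Myo10 had 60 regions, the most of the chromosome 15 genes named here, and 3 regions of each group alone, against 3.06% and 4.09% genome-wide. Its main promoter region (25621517 to 25623330) had pileups of 65 and 56 in SOX17FNV libraries, against 77 and 72 in SOX2 libraries, a ratio of 0.883. The region over its second window, with 6 CG dinucleotides against 23 in the main one, was SOX2-only (25752604 to 25753453), with pileups of 44 and 38, and stood 550 bp from a region called in SOX17FNV libraries. That neighbour (25754003 to 25755118) was shared, with pileups of 74 and 57 in SOX17FNV libraries, against 86 and 56 in SOX2 libraries, a ratio of 1.02. A further SOX2-only region of Myo10 (25789167 to 25789688) had pileups of 60 and 35. In the other direction, a shared region inside Myo10 (25736356 to 25736898) had 45 and 23 in SOX17FNV and 25 and 19 in SOX2 libraries, and one 14219 bp from the gene (25827892 to 25828936) had 44 and 34 in SOX17FNV and 33 and 25 in SOX2 libraries. Over 21 shared regions the median log2 ratio of Myo10 was -0.06, with 6 lower and 4 higher, counts near the genome-wide shares of 20.8% and 21.6%.

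The lowest ratios of chromosome 15 were at a region with no gene within 50 kb (16446409 to 16447031), with pileups of 12 and 14 in SOX17FNV libraries, against 46 and 31 in SOX2 libraries, at one inside Ctnnd2 (30693708 to 30694641), with 18 and 15 in SOX17FNV and 44 and 51 in SOX2 libraries, and at one inside the cadherin gene Cdh12 (21365955 to 21367121), with 14 and 20 in SOX17FNV and 50 and 44 in SOX2 libraries. Their ratios were 0.374, 0.378 and 0.389, and their background ratios 0.960, 0.804 and 0.950. These were picked among regions whose groups do not overlap. A SOX2-only region 25203 bp from Trio (28051051 to 28051683) had pileups of 37 and 31, with the nearest region called in a SOX17FNV library 8700 bp away. The strongest SOX17FNV-only region, 390 bp from Matn2, a matrix protein gene (34436632 to 34437001), had pileups of 24 and 21. Others lay inside Myo10 (25675217 to 25675529), with 19 and 16, and inside Cdh12 (20872640 to 20873016), with 18 and 14 and no region of a SOX2 library within 118376 bp. Zfp622, a zinc finger gene (25983733 to 25985472), held the strongest shared region, with pileups of 85 and 58 in SOX17FNV and 68 and 68 in SOX2 libraries, which overlap.

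Promoter windows in the stretches that were open in all 4 libraries were richer in CG dinucleotides than closed ones, as they were elsewhere. In the chromosome 6 stretch, 189 of 512 windows (36.9%) lay under a shared region and had a median of 17 CG dinucleotides. The 49 windows under a region called in 1 to 3 libraries had a median of 6, and the 274 under no region a median of 2. In the chromosome 15 stretch these medians were 28, 9 and 2 over 28, 7 and 35 windows. Over all windows of the genome they were 21, 7 and 3. Of the shared regions over a promoter window, 116 of 145 on chromosome 6 and 16 of 22 on chromosome 15 had a log2 ratio below 0, with extremes of -1.14 and 0.55 on chromosome 6 and -0.57 and 0.17 on chromosome 15. Over all shared regions of these stretches, the shares below 0 were 81.8% and 72.3%.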

How the data were processed

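The 4 libraries were grouped by their titles. The authors deposited 1 peak list per library, made with Bowtie2, SAMtools and MACS2 on build mm10 per the submitters' processing notes, while versions and settings were not given in the sources used here. A deposited line holds the fold enrichment, a ratio of summit pileup to local background, the -log10 of the p-value and q-value, and a score that was not used here. Read totals are not given, so depth is unknown. The weakest summits had pileups of 11 and 10 in the SOX17FNV lists and 12 and 13 in the SOX2 lists.

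Pileup and background were solved from the deposited fold and -log10 p. For 100% of summits a whole number of fragments matched the deposited -log10 p to within 0.001. Where the peak caller scaled its fragments, the solved numbers follow that scale. Distinct intervals were merged where they overlapped by 1 bp or more. Regions were assigned to the nearest of 21883 protein-coding gene spans of GRCm38.p6 within 50 kb. RefSeq promoter windows came from the same build. Borders came from a least-squares search for 1 interval of at least 30 shared regions per chromosome. Python 3.11.15, numpy 2.4.6, pandas 2.3.3 and matplotlib 3.10.9 were used, and the steps were tested on simulated data.

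The members, gene lists and alternatives were chosen with earlier results of these data known. Named genes were, per stretch, those with the most regions of 1 group (8 and 5, ties by symbol), the 5 strongest shared regions, the 3 strongest regions of each group alone, the 3 shared regions without overlap with the largest ratio in each direction, genes beside borders, and the lists. Promoter regions of other genes were named after their values were seen. With 2 libraries against 2, an exact permutation test cannot go below 0.333, and none was run. No genome was used here. One gene of the lists is not reported here by itself.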

Additional observations from a re-analysis of the deposited data

How the results depend on the processing

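The cause of each change below was not tested unless the setting itself shows it. Scaling to the rest of the same chromosome gave a log2 pileup ratio of -0.19 and a log2 background ratio of -0.28 for the chromosome 6 stretch. With only peaks of a -log10 q of at least 5, the pileup ratio was -0.13 on chromosome 15, 23 SOX17FNV-only and 71 SOX2-only regions were left on chromosome 6 and 19 SOX2-only regions on chromosome 15, the borders were at 120971431 and 31562594, and the cadherin median turned to 0.066. At 10 or more, the pileup ratios were -0.18 and -0.088, 12 and 2 SOX17FNV-only against 27 and 16 SOX2-only regions were left on chromosomes 6 and 15, the excess of SOX17FNV-only over SOX2-only regions was 1 at each of Aebp2, Atf7ip and Bcat1, and the cadherin median was 0.19. Fold enrichment in place of pileup gave 0.030 on chromosome 6, with 15.6% lower and 18.6% higher regions, and -0.091 on chromosome 15, with 27.7% lower. All summits together gave log2 background ratios of -0.25 and -0.13, and regions above the lowest background -0.38 and -0.14. The border lay at 120481497 and 31442531 in the local background, and at 31442531 in the second pileup search on chromosome 15, against 120665136 and 73512081 in the pileup. The last position starts an interval outside the chromosome 15 stretch and is not a border of it.

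Leaving out 1 library in turn gave log2 pileup ratios of -0.31 to -0.23 on chromosome 6 and -0.25 to -0.19 on chromosome 15, and background ratios of -0.34 to -0.30 and -0.18 to -0.028. Shares of lower regions were 63.0% to 71.2% and 54.1% to 62.3%, and of higher ones 9.04% to 12.9% and 13.4% to 19.9%. Groups of 2 libraries against 1 fail to overlap more easily than groups of 2 against 2. Genome-wide shares with 1 library left out were not computed, so these shares cannot be set against those of all 4 libraries. SOX17FNV-only regions numbered 58 to 230 and 17 to 74, and SOX2-only regions 270 to 719 and 43 to 146, since fewer lists had to match. The chromosome 6 border in the pileup ran from 120.65 to 120.74 Mb (120647352 to 120736822). On chromosome 15 the interval end nearest to 35 Mb was taken. It ran from 73.18 to 73.51 Mb (73183062 to 73512237), which lies outside the stretch and is not a border of it. For Aebp2 the difference in counts ran from -9 to 1, the last without SOX17FNV replicate 2.

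With the replicate block the pileup ratios were -0.25 and -0.18, with the same direction. Same-numbered libraries deviated together, with a correlation of 0.234 over 56427 regions, which with 2 pairs is only a hint, and the numbers are otherwise only shared. Of the values that answer a comparison, 80 kept their direction and size, 52 moved and 1 reversed. Among the gene and list values 251 kept them, 114 moved and 6 reversed. The adjustment for strength, the limits to regions beyond the borders or above the lowest background, the borders in the local background and the second search were chosen after seeing the data. Without read totals, weak regions called in 1 group alone are limited by depth.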
